A study of Mus musculus with 10 samples.

Results

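The clustered histone genes are the multi-copy genes that encode the linker histone H1 and the core histones H2A, H2B, H3 and H4. Of the 55385 gene identifiers in the count table, 67 were taken, namely the protein-coding genes whose GENCODE M21 symbol begins with Hist1h, Hist2h, Hist3h or Hist4h. Another 3 genes with such symbols are pseudogenes and were not included. The set holds 6 H1, 18 H2A, 18 H2B, 12 H3 and 13 H4 genes. On GRCm38, 54 of them lie on chromosome 13 within 2.22 Mb, 10 on chromosome 3, 2 on chromosome 11 and 1 on chromosome 6.

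They were measured by sequencing of poly-adenylated RNA in sorted lung endothelial cells from mice aged 8 to 14 weeks. All animals of both groups were Tnfsf10 L/L, with both alleles of the gene for the death ligand TRAIL flanked by loxP sites. Per the labels' protocols, deletion was induced by tamoxifen, 1 mg per mouse each day for 5 or 10 days. The EC-TRAIL KO group (n = 5 libraries) was Cdh5.Cre Tg/W, with an inducible Cre driven by the endothelial Cdh5 promoter (Cdh5.iCreERT2). The Control group (n = 5) was Cdh5.Cre W/W. Every EC-TRAIL KO library carried the Cre transgene and no Control did, so the transgene and the deletion cannot be told apart. The labels do not tie libraries to separate mice, so each p-value reflects library-to-library spread, which may be technical.

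Most clustered histone genes are replication-dependent: their mRNAs are made in S phase to package new DNA. These mRNAs normally end at a conserved stem-loop bound by SLBP and carry no poly(A) tail. Some of the genes also give polyadenylated transcripts with a longer 3′ UTR, a form known from resting and differentiated cells. A library built from poly-adenylated RNA therefore does not see all histone mRNA alike, and the 3′ ends matter for reading every value that follows.

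The 3′ ends of 8 of the genes are shown to compare them around the stem-loop, because the largest difference between the groups lay in the first 2. Each line gives the 16-base stem-loop in capitals and the 12 bases before it, 5′ to 3′ on the gene's own strand, from the GENCODE M21 transcripts (GRCm38). Hist1h2ao lies on chromosome 13 (plus strand), Hist1h2ap and Hist1h2ag on chromosome 13 (minus), Hist2h2aa2 on chromosome 3 (minus), Hist3h2a on chromosome 11 (plus), Hist1h1c on chromosome 13 (plus), Hist1h2be on chromosome 13 (minus) and Hist4h4 on chromosome 6 (minus).
Hist1h2ao: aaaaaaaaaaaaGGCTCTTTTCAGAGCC
Hist1h2ap: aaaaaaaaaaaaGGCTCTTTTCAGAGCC
Hist1h2ag: atcgccaacaaaGGCTCTTTTCAGAGCC
Hist2h2aa2: agctcctaaaaaGGCTCTTTTCAGAGCC
Hist3h2a: acagacaccaaaGGCTCTTTTCAGAGCC
Hist1h1c: aacaatccaaaaGGCTCTTTTCAGAGCC
Hist1h2be: tcctaaaccaaaGGCTCTTTTCAGAGCC
Hist4h4: cccatccacaaaGGCCCTTTTCAGGGCC
In 7 of these 8 the stem-loop is the same, and in Hist4h4 it differs within the stem. The annotated transcript ends 31 bases after the stem-loop in Hist1h2ao, 3 in Hist1h2ap, 23 in Hist1h2ag and 35 in Hist2h2aa2. It goes on for 840 bases in Hist1h1c, 1643 in Hist3h2a, 1861 in Hist1h2be and 2445 in Hist4h4. Among the genes annotated with short ends, only Hist1h2ao and Hist1h2ap, which are near-identical copies, have 12 A in a row, directly before the stem-loop. Some other short annotations end before any stem-loop and cannot show such a run.

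Over the whole set, 46 genes have a stem-loop of this kind in an annotated transcript and 21 do not, and 26 of the 46 share the sequence of Hist1h2ao. The genes were split by their longest annotated 3′ UTR, over 150 bases (27 genes, called long here) or up to 150 bases (40 genes, called short), a limit chosen for this description. Hist1h4a lies just above it with 154 bases and Hist1h2bp on it with 150. Of the genes without a stem-loop, 17 are short. Most of these are annotated with at most 2 bases of 3′ UTR, such as Hist1h1b with 0 and Hist1h2ah with 2. Their annotation ends too early to hold a stem-loop, so for them neither its absence nor a short end is shown. A run of 12 or more A occurs in 3 of the 67 genes, the third being the long Hist1h2ac with 15, and in 5.31% of 58797 protein-coding transcripts of the annotation. In the other short genes the longest run is 7, but transcripts whose annotation ends too early cannot show a run before the stem-loop.

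Expression is given as CPM, the authors' deposited expected counts scaled to library sizes adjusted by TMM. Totals ran from 29806083 to 34702571 expected counts in EC-TRAIL KO libraries and from 34435835 to 56897822 in Controls, so that EC-TRAIL KO libraries were shallower (p = 0.0159 by exact two-sided permutation). A count of 0, which allows up to 3 counts, stands for at most 0.0996 CPM in the shallowest library, for counting error only. Tnfsf10 was lower in EC-TRAIL KO libraries than in Controls by the exact two-sided permutation test of that gene alone (p = 0.0238), at 81.0 to 318.0 CPM in EC-TRAIL KO and 298.2 to 373.6 CPM in Controls. In edgeR's quasi-likelihood fit it missed the threshold (log2 fold change -0.90, SE 0.276, adjusted p = 0.425), and EC-TRAIL KO replicate 2 lay within the Control range. Without that replicate it passed at -1.21 (edgeR adjusted p = 0.0345). The 10 endothelial markers summed to 10949 to 12748 CPM in EC-TRAIL KO and 10990 to 12693 CPM in Controls. The 10 alveolar epithelial markers, of cells outside the labelled type, summed to 6844 to 9988 CPM in EC-TRAIL KO and 8265 to 12391 CPM in Controls. None of the 4 lists of markers of other cell types (epithelial, leukocyte, fibroblast and mural, platelet and erythroid) had a member that passed, and no marker was at 0 in every library. Since only 0.439% of all genes passed, this does not speak to purity. Only 8 of the 11 leukocyte markers were tested. Log2 fold changes ran from -0.15 to 0.61 for leukocyte markers and from -0.91 to 0.53 for platelet and erythroid ones. The part of other cells in the histone values was not tested.

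A few genes with long 3′ ends and some H2A copies with short ones carried most of the clustered histone signal, and no single gene passed the test between the groups. Hist1h1c, Hist1h2bc, Hist3h2a, Hist2h2aa2, Hist1h2ao and Hist2h2be together held 79.0% of the set's CPM in EC-TRAIL KO libraries and 79.4% in Controls. After the filter on low counts 26 of the 67 genes were tested, 20 long and 6 short. The other 41 did not pass that filter, which asks for enough counts in enough libraries. Of these, 5 were at 0 in every library (Hist1h2aa, Hist1h2ag, Hist1h2ah, Hist1h2ba and Hist2h3c1). None of the 26 passed edgeR's quasi-likelihood test after adjustment over all genes, where 79 of 17997 genes (0.439%) were called, all of them higher in EC-TRAIL KO. An unadjusted p under 0.05 was reached by 1 of the 26 (Hist1h2ao, higher in EC-TRAIL KO) and by 5.13% of all genes, 3.81% higher and 1.32% lower. The 26 log2 fold changes ran from -0.59 to 1.997 with a median of -0.075, and 17 of 26 were below 0, beside a median of -0.0085 and 52.6% below 0 over all genes. In none of the 26 did the groups stand apart without overlap, which held for 1.38% of all genes with every EC-TRAIL KO library above every Control and for 0.261% with every one below.

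**Figure D1:**
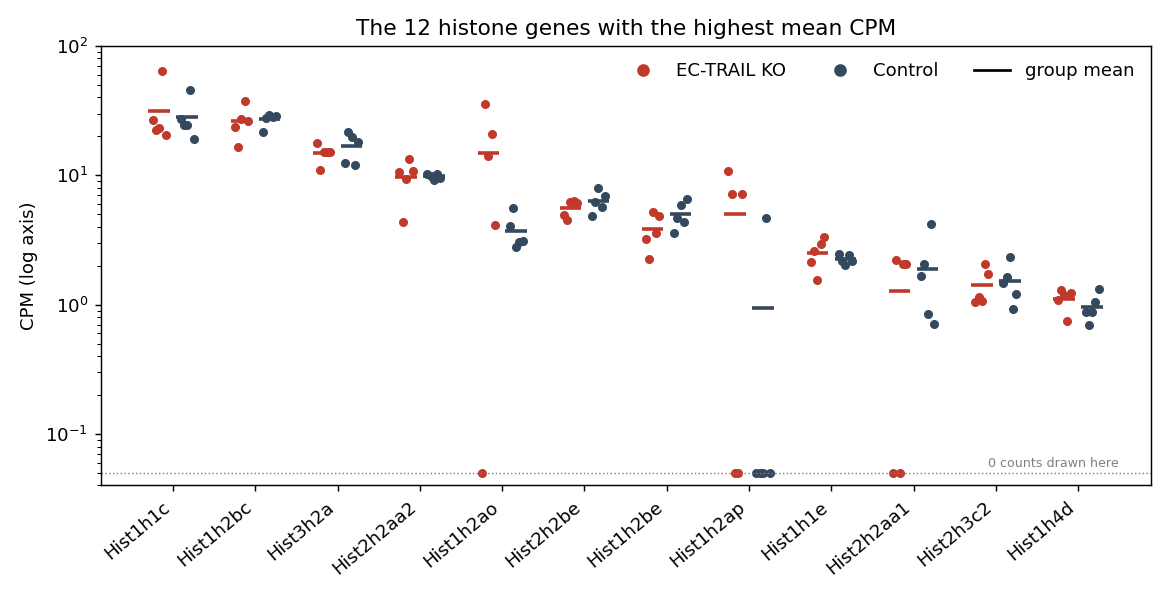
CPM on a log axis of the 12 clustered histone genes with the highest mean CPM, with 1 point per library, EC-TRAIL KO left of Control, and bars at the group means. The groups overlap in every gene, and Hist1h2ao and Hist1h2ap hold libraries at 0 (drawn on the dotted line) beside libraries above 7 CPM.

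Levels of different genes were compared per kb of merged exons, within each group. In EC-TRAIL KO libraries Hist1h2ao came first with a mean of 31.1 CPM per kb, followed by the H2B gene Hist1h2bc with 22.6, Hist1h1c with 20.03, Hist2h2aa2 with 18.4, Hist1h2ap with 10.4 and Hist3h2a with 6.90 CPM per kb. In Controls Hist1h2bc came first with 23.5 CPM per kb, followed by Hist2h2aa2 with 18.5, Hist1h1c with 18.1, Hist3h2a with 7.81 and Hist1h2ao with 7.74 CPM per kb. Hist1h2ap had 1.94 CPM per kb in Controls, below Hist2h2aa1 with 3.23, Hist2h2be with 2.41 and Hist1h4h with 2.15. Per kb of coding length Hist1h2bc was first in both groups, with 69.2 CPM per kb in EC-TRAIL KO and 71.9 in Controls. Hist1h1c followed with 49.1 in EC-TRAIL KO and 44.3 in Controls, and Hist3h2a had 37.96 CPM per kb of coding length in EC-TRAIL KO and 42.98 in Controls. The order thus depends on both the group and the length used, and the values of Hist1h2ao and Hist1h2ap rest on how reads were divided between them.

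Among the linker histones, which bind the DNA that enters and leaves the nucleosome, Hist1h1c (encoding H1.2, chromosome 13, 23738808 to 23740367, plus strand) was the most abundant. It had 26.6, 22.6, 23.1, 63.6 and 20.4 CPM in EC-TRAIL KO replicates 1 to 5, against 27.5, 24.6, 24.3, 45.4 and 19.2 CPM in Controls 1 to 5. The libraries numbered 4 were the highest of both groups, and the other 8 lay between 19.2 and 27.5 CPM. The log2 fold change was 0.15 (SE 0.319, edgeR adjusted p = 0.997), and it was -0.28 without EC-TRAIL KO replicate 4. Hist1h1e (H1.4) averaged 2.51 ± 0.706 CPM in EC-TRAIL KO and 2.25 ± 0.184 CPM in Controls (SD, n = 5 each). Hist1h1d (H1.3) averaged 0.580 ± 0.101 CPM in EC-TRAIL KO and 0.588 ± 0.142 CPM in Controls (SD, n = 5 each).

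The remaining 3 linker genes were not tested. Hist1h1a (H1.1) averaged 0.286 CPM in EC-TRAIL KO and 0.331 CPM in Controls, and the testis-specific Hist1h1t 0.0575 CPM in EC-TRAIL KO and 0.0592 CPM in Controls. Hist1h1b (H1.5), an H1 of dividing cells with a short annotated end, had 15 counts in EC-TRAIL KO replicate 2 and 0 to 4 in each of the other EC-TRAIL KO libraries, against 1 to 4 counts in each Control. Replicate 2 thus stood alone, and the groups overlapped. Over all 6 linker genes the summed CPM was 29.5, 26.6, 25.6, 67.5 and 25.0 in EC-TRAIL KO replicates 1 to 5, against 30.6, 27.99, 27.4, 48.6 and 22.7 in Controls 1 to 5.

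The H2A genes held the largest difference, and it sat in 2 copies that the counts could not tell apart. H2A pairs with H2B in the dimers that flank the central tetramer of the nucleosome. Hist1h2ao (ENSMUSG00000094248, chromosome 13, 21810465 to 21810944, plus strand) had 0, 35.7, 14.1, 20.7 and 4.15 CPM in EC-TRAIL KO replicates 1 to 5, against 4.04, 5.58, 2.77, 3.05 and 3.13 CPM in Controls 1 to 5. The groups overlapped, because EC-TRAIL KO replicate 1 was at 0. Hist1h2ao had a log2 fold change of 1.997 (SE 0.819, unadjusted p = 0.0310, edgeR adjusted p = 0.860), but of -0.078 with limma-voom and -0.38 with its quality weights. Among the alternatives it passed only when EC-TRAIL KO replicate 1 was left out (2.32, edgeR adjusted p = 0.0446), with adjusted p up to 0.999992 in the others.

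Hist1h2ap (ENSMUSG00000094777, chromosome 13, 21833026 to 21833507, minus strand), which lies close by on the other strand, had 10.8, 7.17, 0, 0 and 7.17 CPM in EC-TRAIL KO replicates 1 to 5, against 0, 0, 0, 4.68 and 0 CPM in Controls 1 to 5. It was not tested, having counts in too few libraries. The annotated transcripts of these genes, 480 and 482 bases long, are identical over 452 bases and differ only in 28 bases at the 3′ end of Hist1h2ao and 30 at the 5′ end of Hist1h2ap. Where Hist1h2ap was above 0 its expected count was 370 in EC-TRAIL KO replicate 1 and exactly 216 in EC-TRAIL KO replicates 2 and 5 and Control replicate 4. RSEM, the authors' quantifier, divides reads that fit several genes by a model, and in EC-TRAIL KO replicate 1 all of the pair's count went to Hist1h2ap.

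The counts of near-identical genes were therefore summed before the fit. This step was chosen after the values had been seen, so that its test is not independent evidence. Copies were defined by at least 90% of 50-base words shared, which gave 3 pairs. The Hist1h2ao and Hist1h2ap pair had 10.8, 42.9, 14.1, 20.7 and 11.3 CPM in EC-TRAIL KO replicates 1 to 5, against 4.04, 5.58, 2.77, 7.73 and 3.13 CPM in Controls 1 to 5. All 5 EC-TRAIL KO libraries were above all 5 Controls, with replicate 2 the highest. Over all genes tested this way, 1.39% stood apart in that direction.

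The pair's means were 19.96 ± 13.4 CPM in EC-TRAIL KO and 4.65 ± 2.04 CPM in Controls (SD, n = 5 each), a ratio of 4.29. The log2 fold change of 2.09 (SE 0.407) narrowly missed the threshold of 0.05 (edgeR adjusted p = 0.0508, where 0.439% of genes were called higher). It passed under 7 of 20 alternatives, among them the removal of EC-TRAIL KO replicate 2 (1.61, edgeR adjusted p = 0.0393), and the adjusted p ranged from 0.000943 to 0.186. The direction was the same in all 20. At a looser link of 70% of words, the pair joined 7 other H2A genes, and the 9 together had 20.4 ± 13.6 CPM in EC-TRAIL KO and 4.97 ± 2.001 CPM in Controls (SD, n = 5 each), and a fitted log2 fold change of 2.03 (edgeR adjusted p = 0.0505). Those 7 added little, since the pair alone held 19.96 of the 20.4 CPM in EC-TRAIL KO and 4.65 of the 4.97 CPM in Controls.

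**Figure D2:**
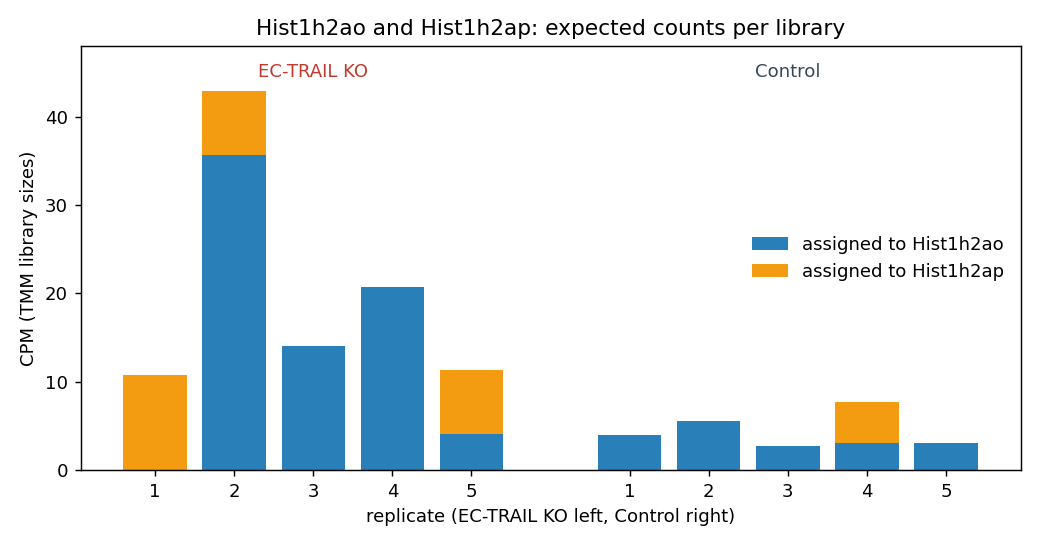
CPM of Hist1h2ao (blue) and Hist1h2ap (orange), stacked for each of the 5 EC-TRAIL KO libraries (left) and 5 Controls (right). The division between the copies changes from library to library, while each stacked total of EC-TRAIL KO, 10.8 CPM or more, is above each Control total, 7.73 CPM or less.

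Of the 18 H2A genes only 5 were tested, Hist1h2ao among them, and none of these passed. Hist3h2a (chromosome 11, 58954685 to 58956830, plus strand), with a long 3′ UTR, had 17.8, 10.9, 15.1, 15.2 and 15.0 CPM in EC-TRAIL KO replicates 1 to 5, against 12.5, 21.5, 19.6, 11.9 and 18.2 CPM in Controls 1 to 5. The groups overlapped, with the lowest value in EC-TRAIL KO replicate 2 (log2 fold change -0.18, SE 0.178, edgeR adjusted p = 0.997). Its exon overlaps Trim17 on the same strand, so part of its reads may belong to that gene.

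Hist2h2aa2 and Hist2h2aa1 are the second pair of copies, with all words of the shorter transcript present in the longer. Hist2h2aa2 had 10.5, 4.35, 9.43, 13.4 and 10.8 CPM in EC-TRAIL KO replicates 1 to 5, against 10.2, 9.83, 9.16, 10.2 and 9.59 CPM in Controls 1 to 5. Summed with Hist2h2aa1, the pair averaged 10.98 ± 3.39 CPM in EC-TRAIL KO and 11.7 ± 1.72 CPM in Controls (SD, n = 5 each), with overlapping groups (log2 fold change -0.09, SE 0.194, edgeR adjusted p = 0.997). Hist2h2aa1 alone had the lowest log2 fold change of the tested genes, -0.59 (SE 0.871), and was at 0 in EC-TRAIL KO replicates 1 and 3. Hist1h2ac, at 0.536 ± 0.272 CPM in EC-TRAIL KO and 0.516 ± 0.109 CPM in Controls (SD, n = 5 each), had a log2 fold change of 0.04 whose sign turned in 8 of 19 alternatives. The 11 other short H2A genes that were not tested averaged at most 0.281 CPM in either group.

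Among the H2B genes, 8 of 18 were tested and 6 of the 8 had log2 fold changes below 0. Hist1h2bc (chromosome 13, 23684199 to 23692908, plus strand) is annotated with 2 exons, a 3′ UTR of 742 bases and no stem-loop. It had 23.4, 16.6, 26.999, 37.4 and 26.3 CPM in EC-TRAIL KO replicates 1 to 5, against 21.4, 27.9, 29.5, 28.2 and 28.9 CPM in Controls 1 to 5. EC-TRAIL KO replicates 2 and 4 were the lowest and the highest of all 10, and the groups overlapped (log2 fold change -0.054, SE 0.173, edgeR adjusted p = 0.997). The same replicate 2 that had the highest value of the Hist1h2ao and Hist1h2ap pair was thus the lowest for Hist1h2bc.

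Hist2h2be (chromosome 3, 96221119 to 96223738, plus strand), which shares no 50-base word with another gene, averaged 5.61 ± 0.858 CPM in EC-TRAIL KO and 6.31 ± 1.17 CPM in Controls (SD, n = 5 each). Hist1h2be averaged 3.82 ± 1.203 CPM in EC-TRAIL KO and 5.01 ± 1.21 CPM in Controls (SD, n = 5 each), its log2 fold change being -0.39 (SE 0.234, edgeR adjusted p = 0.997). Its exons overlap those of Hist1h1e on the same strand, so reads of these genes are uncertain. The third pair of copies, Hist1h2bq and Hist1h2br, summed to 0.999 ± 0.286 CPM in EC-TRAIL KO and 1.11 ± 0.634 CPM in Controls (SD, n = 5 each), with overlapping groups. Hist1h2bh, at 0.369 ± 0.119 CPM in EC-TRAIL KO and 0.270 ± 0.192 CPM in Controls (SD, n = 5 each), was one of the 2 H2B genes above 0 (log2 fold change 0.43, SE 0.404). The 10 short H2B genes summed to 0.652 ± 0.406 CPM in EC-TRAIL KO and 0.318 ± 0.161 CPM in Controls (SD, n = 5 each), with overlapping groups.

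The H3 and H4 genes, whose products form the central tetramer, were low in both groups. The 12 H3 genes summed to 3.37 ± 1.09 CPM in EC-TRAIL KO and 3.21 ± 0.417 CPM in Controls, and the 13 H4 genes to 5.73 ± 0.727 CPM in EC-TRAIL KO and 5.39 ± 0.596 CPM in Controls (SD, n = 5 each). Of the 3 H3 genes tested Hist2h3c2 was the highest, at 1.41 ± 0.458 CPM in EC-TRAIL KO and 1.52 ± 0.535 CPM in Controls (SD, n = 5 each). Hist2h3b averaged 0.524 ± 0.246 CPM in EC-TRAIL KO and 0.484 ± 0.248 CPM in Controls (SD, n = 5 each). Hist1h3e, which was too low to be tested, had 1.27 to 5.26 counts in EC-TRAIL KO libraries and 5.47 to 20.2 counts in Controls, and on the CPM scale the groups overlapped at 0.0379 to 0.152 CPM in EC-TRAIL KO and 0.142 to 0.343 CPM in Controls. It was picked out after its values were seen.

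Of the 7 H4 genes tested, 5 had log2 fold changes below 0. Hist1h4d averaged 1.11 ± 0.211 CPM in EC-TRAIL KO and 0.960 ± 0.232 CPM in Controls (SD, n = 5 each). Hist2h4 averaged 0.785 ± 0.196 CPM in EC-TRAIL KO and 1.03 ± 0.301 CPM in Controls (SD, n = 5 each), and its log2 fold change was -0.38 (SE 0.259). Hist1h4i had the second highest log2 fold change of the set, 0.53 (SE 0.330, edgeR adjusted p = 0.997), at 0.581, 0.967, 0.250, 0.575 and 0.373 CPM in EC-TRAIL KO replicates 1 to 5, against 0.448, 0.346, 0.437, 0.334 and 0.314 CPM in Controls 1 to 5. EC-TRAIL KO replicate 3 was the lowest of all and replicate 2 the highest, so the groups overlapped. Hist1h4h and Hist4h4 had log2 fold changes of -0.31 (SE 0.279) and -0.22 (SE 0.250). Hist1h4m and Hist1h4n, with 89.8% of words shared, lay just outside the rule for copies, and 1 of them was at 0 in 7 of the 10 libraries. Summed, they had 0.995 ± 0.439 CPM in EC-TRAIL KO and 0.554 ± 0.201 CPM in Controls (SD, n = 5 each), with overlapping groups (edgeR adjusted p = 0.928).

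**Figure D3:**
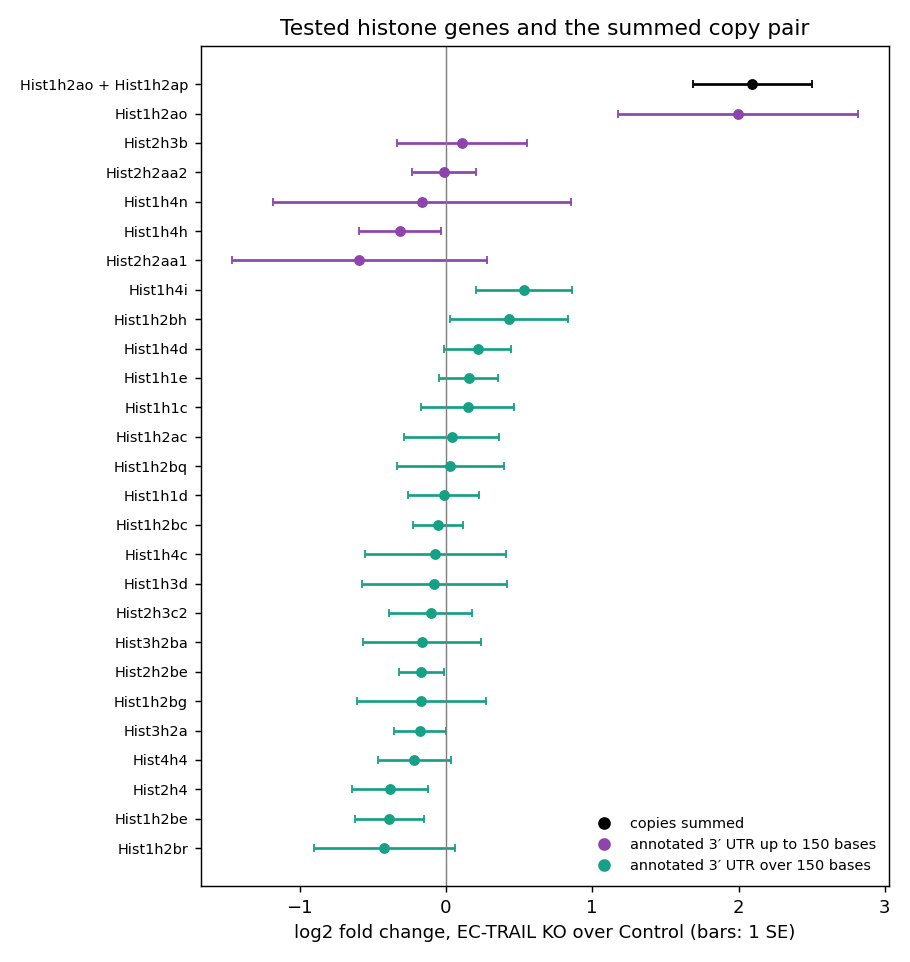
Log2 fold change of EC-TRAIL KO over Control with 1 SE for the 26 tested clustered histone genes and, at the top in black, for the summed Hist1h2ao and Hist1h2ap pair. Apart from Hist1h2ao (1.997) and the pair (2.09), the values lie between -0.59 and 0.53, and no single gene passed the adjusted threshold.

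Summed by annotated 3′ end, the long genes had close mean sums in the groups, and so had the short genes once the pair was set aside. The second of these sums rests mostly on 1 other pair of copies. The pair set aside, Hist1h2ao and Hist1h2ap, was chosen for its difference, so the closeness of the rest follows in part from that choice. The 27 long genes summed to 85.7, 69.5, 87.1, 139.8 and 85.9 CPM in EC-TRAIL KO replicates 1 to 5, against 80.6, 99.0, 98.3, 107.0 and 91.9 CPM in Controls 1 to 5. Their means were 93.6 ± 26.8 CPM in EC-TRAIL KO and 95.4 ± 9.83 CPM in Controls (SD, n = 5 each). The 40 short genes summed to 36.2 ± 13.7 CPM in EC-TRAIL KO and 20.4 ± 3.93 CPM in Controls, and the 38 without Hist1h2ao and Hist1h2ap to 16.2 ± 3.90 CPM in EC-TRAIL KO and 15.8 ± 1.93 CPM in Controls (SD, n = 5 each). Of the 38, Hist2h2aa1 and Hist2h2aa2 held 10.98 CPM in EC-TRAIL KO and 11.7 CPM in Controls. By type, the short genes averaged 0.652 CPM in EC-TRAIL KO against 0.318 CPM in Controls for H2B and 1.42 against 1.01 CPM for H3. For H4 the means were 1.99 against 1.76 CPM and for H1 0.436 against 0.377 CPM, with overlapping groups in each type. All 67 genes summed to 129.7 ± 30.2 CPM in EC-TRAIL KO and 115.8 ± 12.8 CPM in Controls, and the 65 without the pair to 109.8 ± 30.2 CPM in EC-TRAIL KO and 111.2 ± 11.3 CPM in Controls (SD, n = 5 each). The groups overlapped in each of these sums, and on the log2 scale the ratio of the sums over all 67 genes was 0.16, and it was 0.0087 without EC-TRAIL KO replicate 4 and 0.40 without the 3 genes of the highest mean CPM (Hist1h1c, Hist1h2bc and Hist3h2a). The 64 genes left summed to 57.5 ± 13.7 CPM in EC-TRAIL KO and 43.7 ± 4.07 CPM in Controls (SD, n = 5 each), with overlapping groups. In these bulk samples, fewer cells with a transcript and less transcript per cell cannot be told apart.

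**Figure D4:**
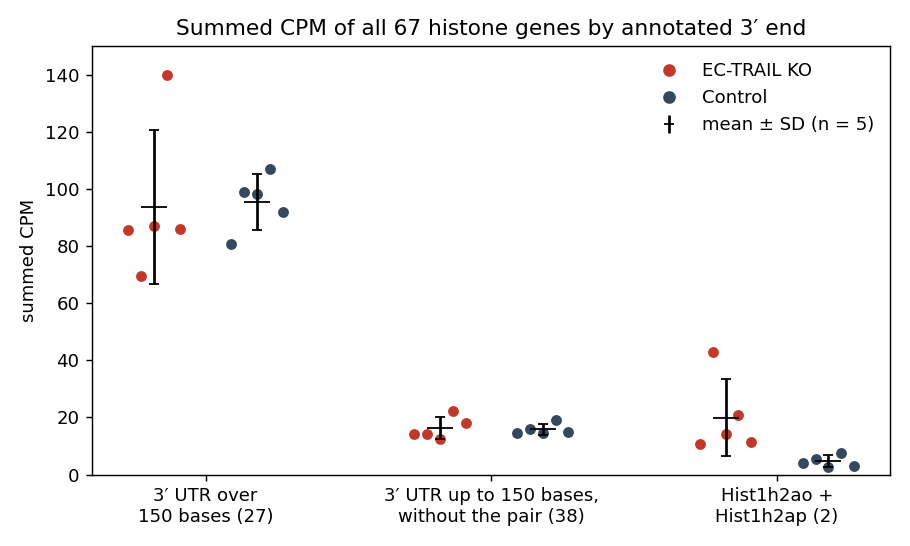
Summed CPM per library for the 27 long genes, the 38 short genes without Hist1h2ao and Hist1h2ap, and that pair, EC-TRAIL KO left of Control, with the mean and SD (n = 5). The groups overlap in the first 2 sums and stand apart in the pair, at 10.8 to 42.9 CPM in EC-TRAIL KO and 2.77 to 7.73 CPM in Controls. The pair was set apart after its values were seen.

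EC-TRAIL KO replicate 2 had the lowest value of the 10 libraries in 8 of the 26 tested histone genes and the highest in 3. Over all genes tested it was the lowest in 16.3% and the highest in 16.8%. It was also the highest library in all 20 genes of a list of G2 and mitosis genes and in 25 of 28 S phase genes. EC-TRAIL KO replicate 4 was the highest in 5 of the 26, beside 11.1% of all genes.

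Genes that act with the clustered histones were read from the same fit. There 0.439% of all genes were called, all of them higher, so a count of 0 in a short list is near that share. In 1.38% of all genes every EC-TRAIL KO library was above every Control. Of 18 genes of histone mRNA 3′ processing and turnover none passed, with a median log2 fold change of 0.09 and a range of -0.083 to 0.25. Slbp, which encodes the stem-loop binding protein, averaged 34.9 ± 3.55 CPM in EC-TRAIL KO and 31.1 ± 2.27 CPM in Controls (SD, n = 5 each), and its log2 fold change was 0.17 (SE 0.0836, edgeR adjusted p = 0.997). Eri1, the exonuclease that trims the stem-loop end, had 0.25 and Npat, the coactivator of histone transcription, 0.04. Of 21 histone chaperone genes none passed either (median 0.10). Asf1b, the form of this H3 and H4 chaperone found in dividing cells, had the highest log2 fold change among them, 1.51 (SE 0.370, edgeR adjusted p = 0.166), and lay higher in all 5 EC-TRAIL KO libraries than in any Control. Its near relative Asf1a had -0.078.

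Of the 11 replacement histone genes, which are expressed outside S phase too and can give polyadenylated mRNA, 1 rose and none fell. The share over all genes was 0.439% higher and none lower. Cenpa, the H3 variant of centromeres, had 8.46, 22.0, 11.4, 10.9 and 8.99 CPM in EC-TRAIL KO replicates 1 to 5, against 5.48, 5.83, 4.74, 5.44 and 4.91 CPM in Controls 1 to 5, without overlap (log2 fold change 1.22, SE 0.232, edgeR adjusted p = 0.0438). H2afx, an H2A variant with a role in the response to DNA breaks, averaged 27.6 ± 6.24 CPM in EC-TRAIL KO and 17.8 ± 0.662 CPM in Controls (SD, n = 5 each), also without overlap, but did not pass (0.63, SE 0.127, edgeR adjusted p = 0.0603). H1fx, a linker variant, had 1.19 (SE 0.390, edgeR adjusted p = 0.523). The abundant H3.3 genes H3f3a and H3f3b had -0.014 and -0.058, and H2afz 0.11.

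Cell cycle genes are given beside them, from lists chosen with earlier results of these data known, so their counts are not independent evidence. Of 20 G2 and mitosis genes 17 rose and none fell, with a median log2 fold change of 2.18, and in all 20 every EC-TRAIL KO library was above every Control. By comparison, 0.439% of all genes tested rose and none fell, and 1.38% had every EC-TRAIL KO library above every Control. Of 28 S phase genes 1 rose and none fell, with a median of 0.62. That gene, Rrm2, a subunit of the reductase that supplies deoxynucleotides, had 6.75, 30.4, 11.5, 14.4 and 8.66 CPM in EC-TRAIL KO replicates 1 to 5, against 3.34, 4.79, 2.46, 3.92 and 3.52 CPM in Controls 1 to 5 (log2 fold change 1.99, SE 0.363, edgeR adjusted p = 0.0432). As in the Hist1h2ao and Hist1h2ap pair, replicate 2 was the highest EC-TRAIL KO library and replicate 4 the next. In Cenpa the next was replicate 3. This likeness was seen after the values were known, and the share of all genes with such an order was not counted. Over these companion lists 19 genes passed in all. That count was 0 when any 1 of EC-TRAIL KO replicates 3 and 4 or of the 5 Controls was left out, and 20 to 25 when EC-TRAIL KO replicate 1, 2 or 5 was.

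**Figure D5:**
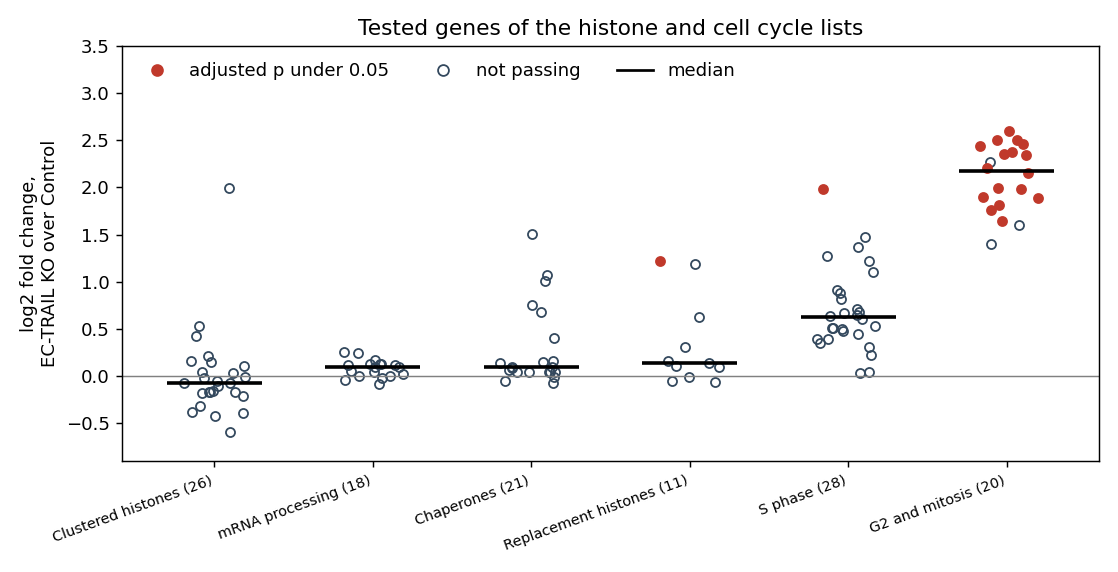
Log2 fold change of EC-TRAIL KO over Control for each tested gene of the clustered histone set and of 5 companion lists, with bars at the medians and filled points for an edgeR adjusted p under 0.05. The clustered histones have a median of -0.075 with Hist1h2ao alone near 2, while the G2 and mitosis genes lie at 1.39 or above. The set and the lists were chosen with earlier results of these data known.

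The 300 bases around the RefSeq start (250 before and 50 after, GRCm38.p6) were found for 62 of the 67 genes. The window of Hist1h2ap, chr13:21833426-21833725 on the minus strand, is shown because it belongs to the pair that stood apart, with CCAAT or its reverse complement ATTGG in capitals.
Hist1h2ap: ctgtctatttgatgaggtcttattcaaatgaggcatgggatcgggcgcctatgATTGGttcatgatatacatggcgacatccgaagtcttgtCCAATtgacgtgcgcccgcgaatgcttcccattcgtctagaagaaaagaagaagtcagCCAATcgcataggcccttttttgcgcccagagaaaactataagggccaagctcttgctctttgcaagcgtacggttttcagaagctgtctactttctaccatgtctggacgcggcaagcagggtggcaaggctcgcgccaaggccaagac
It holds 3 such motifs, and it shares a run of 200 identical bases with the window of Hist1h2ao. Its last 50 bases begin with the start codon ATG, so the RefSeq start used here is that of the coding sequence. The GENCODE M21 transcript begins upstream of it, at 21833507. The start used for the other windows was not checked. Searched on both strands, CCAAT was present for 53 of 62 histone genes (85.5%), beside 37.4% of 32851 RefSeq windows of the same length. A histone gene was counted if any of its windows matched, while the second share counts single windows, so the shares differ in unit. CCAAT was found for all 50 H1, H2A, H2B and H3 genes with a window and for 3 of 12 H4 genes. TATAAA was present for 35 of 62 genes (56.5%), beside 13.6% of all windows, and is not in the window of Hist1h2ap. The octamer ATTTGCAT was present for 14 genes (22.6%), 7 H2A and 7 H2B, beside 1.74% of all windows. A match is a description of the sequence and does not show that a factor binds there.

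Sequence shared between members limits many single values. In 32 of the 67 genes more than 50% of the 50-base words also occur in other genes, and 58 had a fractional expected count in at least 1 library. Exons of 7 genes overlap another gene on the same strand and those of 21 overlap one on the opposite strand, mostly short predicted genes, among them Gm19658 opposite Hist1h2ao. The strand setting of the authors' counting is not given in the sources used here.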

How the data were processed

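Stranded libraries were made from poly-adenylated RNA after TRIzol isolation, per the labels' protocols. STAR 2.7.1a, RSEM 1.2.28 and the build GRCm38 come from the submitters' processing notes. The authors deposited expected counts per gene without normalization, of which 81.2% are whole. The annotation release used and the strand setting of the counting are not stated there. The design text names 4 Tg/W animals, where 5 libraries are labelled so, and all were used.

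Identifiers were matched without version to GENCODE M21 (55144 matched, 241 not). The members and companion lists were chosen with earlier results of these data known. Expected counts were rounded and fitted in R 4.3.3 with edgeR 4.0.16 (filterByExpr with a minimum count of 10, TMM, quasi-likelihood test with its default estimation, Benjamini-Hochberg over the 17997 genes kept, threshold 0.05). SE is the log2 fold change over the square root of F. The list of 3′ processing genes had 19 symbols, of which 18 matched. Named genes are the 8 tested members with the smallest p in each direction, the 10 with the highest CPM, all H1 genes, those with the smallest p of each list, and others named to account for them. Alternatives were RLE factors, library size only, no filter, a mean CPM of at least 1, DESeq2 1.42.0, limma-voom (limma 3.58.1) with and without quality weights, bias-adjusted quasi-likelihood estimation, the replicate number as a block, and each library left out. Summing near-identical copies was chosen after seeing the data. On simulated data with the depths of this comparison (17713 genes), changes were set only in genes with a mean CPM of at least 1. There the test recovered 87% of 2-fold and 100% of 4-fold changes, with 4 false calls among 191. Many of the tested histone genes lie below that level, where recovery was not tested. Libraries differed by more than sampling noise (chi-square over its degrees of freedom at least 20.1 for any pair), so none appeared deposited more than once.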

Additional observations from a re-analysis of the deposited data

Results flagged for a closer look

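In groups of 5 libraries, a value was marked where the gap between the highest or lowest library and its nearest neighbour took up most of the group's range (Dixon's test at 95%). Of 68 groups looked at, 9 were marked, and chance marks about 1 in 20. EC-TRAIL KO replicate 4 was the high library in 5 of them, with 63.6 CPM of Hist1h1c, 67.5 CPM summed over the H1 genes, 139.8 CPM over the genes with a long 3′ UTR, 182.7 CPM over all 67 genes and 0.576 CPM of Hist1h2bh. The first 4 share the reads of Hist1h1c. EC-TRAIL KO replicate 2 was marked for Hist1h1b at 0.498 CPM, which rests on 15 counts. Among Controls, replicate 3 was marked high for Hist1h2bh at 0.607 CPM, replicate 4 for Hist1h2ap at 4.68 CPM, where the other 4 were at 0, and replicate 1 was low for Hist1h2bc at 21.4 CPM.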

How the results depend on the processing

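No clustered histone gene was called under any alternative except Hist1h2ao without EC-TRAIL KO replicate 1, so that the count of called genes ran from 0 to 1 when single libraries were left out. The log2 fold change of the summed Hist1h2ao and Hist1h2ap pair passed with bias-adjusted estimation (2.08, edgeR adjusted p = 0.0498), DESeq2 (2.10, DESeq2 adjusted p = 0.000943), no filter (2.08, edgeR adjusted p = 0.00658) and the replicate block (2.001, edgeR adjusted p = 0.00882), and ran from 1.61 to 2.35 with single libraries left out, passing without EC-TRAIL KO replicate 1 (2.25), 2 (1.61) or 5 (2.24). The count over all genes was 79, and was 2 with library size only, 2 with limma-voom and 2 with its quality weights, 143 without a filter, 211 with DESeq2, 149 with the replicate block and 2 to 155 with single libraries left out. Companion list genes called were 19, and 0 with library size only, limma-voom or its weights, 31 with DESeq2 and 0 to 25 with single libraries left out. Tnfsf10 ran from -1.21 to -0.72. The median log2 fold change of the tested histone genes, -0.075 in the main fit, was 0.023 with no filter. Over all alternatives that median ran from -0.15 to 0.10. The mean level of Hist1h2bc over the 10 libraries was 23.1 CPM per kb of exon and 70.6 per kb of coding sequence. The log2 fold change of Hist1h2ao alone, 1.997, turned to -0.078 with limma-voom and -0.38 with its quality weights. Smaller fold changes also turned sign, Hist1h1d to 0.016 and 0.044, Hist1h2ac to -0.074 and -0.21 and also to -0.0041 (bias-adjusted) and -0.019 (block), and with weights alone Hist1h1e to -0.028, Hist1h1c to -0.0045 and Hist2h3b to -0.24. With single libraries left out, Hist1h2br ran from -0.66 to 0.11, Hist1h1d from -0.13 to 0.072, Hist1h2ac from -0.28 to 0.20, Hist1h2bc from -0.22 to 0.071, Hist1h1c from -0.28 to 0.39, Hist2h2aa2 from -0.16 to 0.17 and Hist2h3b from -0.095 to 0.36. The cause of these changes was not tested. Same-numbered libraries had correlated deviations of 0.11 to 0.43 for 4 of the 5 numbers and of 0.068 for number 2. The numbers were not taken as pairs, because the labels give them no meaning and a correlation over 0.1 was required of all 5. As a hint from the data, 4 of 5 EC-TRAIL KO libraries correlated best with the Control of their own number.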
